A study of Mus musculus with 8 samples.

Results

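The clusters described here are runs of neighbouring CCGG sites in mouse liver DNA whose average methylation lay between the methylated and the unmethylated state. A cluster was a run of autosomal sites at gaps of at most 500 bp, each site listed in all 8 samples with at least 10 tags in the MspI reference. The clusters chosen had 5 to 19 sites and a mean m-score of 25 to below 50 over their sites and the 8 samples. In all, 2204 of 20674 autosomal clusters of 5 or more sites met this rule (10.7%), and they held 13710 sites. The m-score is the measure of HELP-tagging, in which HpaII cuts CCGG only where its CpG is unmethylated and MspI cuts it in either state. The score is the angle between HpaII and MspI tags and runs from 0, where a site gave no HpaII tag and is methylated, to 100, at the unmethylated end. A score of 50 means as many HpaII as scaled MspI tags, and it is not a percentage of methylated DNA. MspI tags enter each sample in proportion to its HpaII tags, so scores compare sites within a sample and say nothing of a change shared by the whole genome.

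Livers of C57BL/6J mice were compared between a high-fat diet with lingonberries (4 samples) and the high-fat diet alone, called HFD (4 samples). All 8 samples thus came from mice on the high-fat diet. The labels state no age, sex, berry dose or feeding time, and name no batch and no pairing of samples. The labels do not say that each sample was a separate mouse, so the spread between samples may be partly technical. Recovered HpaII tags numbered 16076961, 9974503, 6121989 and 10215066 in the lingonberry samples, against 7036766, 6530093, 5877080 and 7428108 in the HFD samples. Lingonberry replicates 1, 2 and 4 were deeper than every HFD library. Liver was taken whole, so a site methylated in some cells and a site methylated on some copies in every cell give the same score.

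In mammals, CpG sites across most of the genome are methylated, whereas CpG islands, short stretches rich in CpG that often cover gene starts, are usually free of methylation. Intermediate levels can arise where alleles or cells differ, as at imprinted regions, where methylation is set by the parent of origin, or in a stretch that holds the border of an island. Promoters of germline genes are a known case of CpG-rich promoters that are methylated in somatic tissue. The average of a cluster cannot tell these apart, so the scores of its single sites are described as well.

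The m-scores of the clusters were chosen by the rule and are given as a description. Clusters of 5 to 19 sites fell into an unmethylated group, with 4161 clusters at 70 to 75 and 3709 at 75 to 80, and a methylated group, with 1209 clusters at 0 to 5. Between them lay a shallow floor, with 566 clusters at 25 to 30 and 367 at 45 to 50. The limits of 25 and 50 therefore cut through a range with no gap on either side. The nearest clusters inside the lower limit had means of 25.00, 25.02 and 25.03, and those just outside it 24.96, 24.97 and 24.97. The nearest inside the upper limit had means of 49.96, 49.96 and 49.98, and those just outside it 50.00, 50.01 and 50.02.

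**Figure D1:**
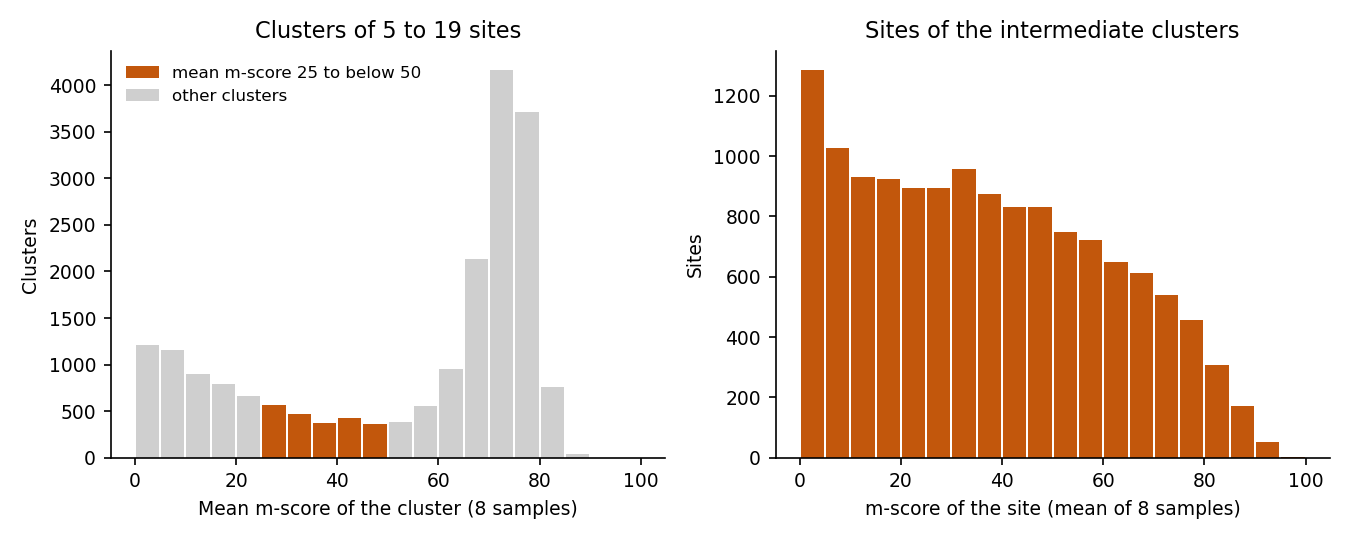
Left, number of clusters of 5 to 19 sites (y axis) by mean m-score over 8 samples (x axis, bins of 5), with the intermediate clusters in orange and all others in grey. Right, number of sites (y axis) by site m-score (x axis) within the 2204 intermediate clusters. The intermediate clusters occupy the floor between the peaks at 0 to 5 and 70 to 75, and their sites cover the whole scale, most densely at 0 to 5 (1285 sites).

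The gene starts that carry the clearest layouts are shown first, as 250 bases of RefSeq sequence (build GRCm38.p6) upstream of the start, 5′ to 3′ along the gene, with CCGG, the letters cut by both enzymes, in capitals. CCGG reads the same on both strands, and 47.1% of 32851 RefSeq promoters hold at least 1 in such a window. They were picked after their values were seen, 5 for a change from unmethylated to methylated sites inside the cluster and 1, Ddx4, as the germline gene of a fixed list. Kif3b encodes a motor subunit of kinesin-2, which carries cargo along cilia and axons. Cstf2t encodes a form of a subunit of the cleavage stimulation factor that is prominent in the testis and acts in mRNA 3′ end formation. Fut1 encodes a fucosyltransferase that makes the H antigen, Madcam1 the addressin that guides lymphocytes to the gut, and Gsdme a gasdermin, which forms pores in membranes. Ddx4 encodes the RNA helicase Vasa of the germline. The windows are chr2:153291166-153291415 (plus strand), chr19:31082591-31082840 (plus strand), chr7:45617356-45617605 (plus strand), chr10:79664309-79664558 (plus strand), chr6:50261770-50262019 (minus strand) and chr13:112652311-112652560 (minus strand).
Kif3b: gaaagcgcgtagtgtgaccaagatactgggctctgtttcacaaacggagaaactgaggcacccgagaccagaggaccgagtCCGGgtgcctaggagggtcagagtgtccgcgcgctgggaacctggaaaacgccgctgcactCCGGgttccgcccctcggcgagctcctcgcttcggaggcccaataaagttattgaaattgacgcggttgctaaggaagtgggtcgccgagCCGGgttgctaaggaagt
Cstf2t: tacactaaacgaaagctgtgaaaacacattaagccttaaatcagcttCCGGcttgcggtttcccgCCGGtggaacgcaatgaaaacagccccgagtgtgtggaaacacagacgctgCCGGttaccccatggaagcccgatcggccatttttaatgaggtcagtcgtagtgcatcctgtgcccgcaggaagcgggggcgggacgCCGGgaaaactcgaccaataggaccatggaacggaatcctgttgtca
Fut1: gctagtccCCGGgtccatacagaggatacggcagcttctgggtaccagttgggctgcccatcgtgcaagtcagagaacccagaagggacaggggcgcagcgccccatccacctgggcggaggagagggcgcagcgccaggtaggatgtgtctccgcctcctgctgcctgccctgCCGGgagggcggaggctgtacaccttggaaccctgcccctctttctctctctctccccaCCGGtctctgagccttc
Madcam1: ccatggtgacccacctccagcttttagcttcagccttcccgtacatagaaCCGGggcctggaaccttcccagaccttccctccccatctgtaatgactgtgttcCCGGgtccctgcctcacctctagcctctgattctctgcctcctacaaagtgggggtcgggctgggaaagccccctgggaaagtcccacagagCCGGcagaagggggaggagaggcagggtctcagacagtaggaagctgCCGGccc
Gsdme: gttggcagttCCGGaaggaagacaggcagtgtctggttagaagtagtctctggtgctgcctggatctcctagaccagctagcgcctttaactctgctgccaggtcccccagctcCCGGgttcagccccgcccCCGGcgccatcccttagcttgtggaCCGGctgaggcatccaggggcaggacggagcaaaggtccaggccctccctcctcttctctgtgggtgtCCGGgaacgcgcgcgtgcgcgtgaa
Ddx4: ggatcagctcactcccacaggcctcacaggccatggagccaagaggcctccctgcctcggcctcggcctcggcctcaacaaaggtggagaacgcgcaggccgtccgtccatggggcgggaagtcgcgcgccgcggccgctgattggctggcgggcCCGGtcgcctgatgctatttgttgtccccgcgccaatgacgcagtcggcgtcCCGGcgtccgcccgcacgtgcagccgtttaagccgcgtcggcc
These 6 windows hold the following numbers of CCGG sites: 3 for Kif3b, 4 for Cstf2t, 3 for Fut1, 4 for Madcam1, 5 for Gsdme and 2 for Ddx4. All of them were measured sites of the cluster except 1 at Cstf2t and 1 at Gsdme.

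In 5 of these 6 genes, those picked for this layout, the cluster joined an unmethylated stretch at the gene start to methylated sites farther away. At Kif3b, whose cluster on the mm9 build of the files is chr2:153116130-153117372, the 6 sites from 169 bases before to 219 bases after the start had m-scores of 63.2 to 77.0. The site 537 bases before the start had 23.8, and those at 865, 979 and 1024 bases before it had 0.696, 4.49 and 0. The same cluster covers the start of Gm39961, a long non-coding RNA that runs in the other direction. The cluster mean was 47.8, 46.1, 42.1 and 44.8 in the lingonberry samples, against 43.5, 44.7, 44.0 and 48.5 in the HFD samples, and the groups overlapped.

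The step lay on the other side of the start at Cstf2t and at Fut1. At Cstf2t (cluster chr19:31157148-31158383, mm9) the 7 sites from 185 bases before to 541 bases after the start had m-scores of 68.5 to 79.8. The 4 sites from 844 to 1051 bases after the start had 0 to 6.47. At Fut1 (chr7:52872414-52874057, mm9) the score was 77.1, 82.9 and 88.4 at the sites 76 and 17 bases before and 43 bases after the start. It was 14.0 at 523 bases after the start, and 2.61 and 4.00 at the 2 sites beyond 1000 bases. The Fut1 site 256 bases before the start stood lower than its neighbours, at 29.7, with 12 MspI tags.

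Madcam1 (chr10:79126145-79128204, mm9) carried a short unmethylated stretch with methylated sites on both sides. Its sites at 200, 146, 54 and 7 bases before the start had m-scores of 71.0, 81.2, 78.7 and 66.4. The site 224 bases after the start gave no HpaII tag in any of the 8 samples with 41 MspI tags, and 3 tags in all would have given a score of 2.00. At Gsdme (chr6:50211630-50213084, mm9) the site 138 bases after the start had the highest score, 82.8, and the sites 949 to 1317 bases before it had 2.35 to 2.68. The Gsdme site 677 bases before the start, with 10 MspI tags, had 41.1 with lingonberries and 53.1 with HFD, and the site 93 bases before it 63.3 and 49.8. At Kif3b, Cstf2t, Fut1 and Madcam1 every site lay on the same side of 50 in both diet groups, and at Gsdme these 2 sites did not.

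**Figure D2:**
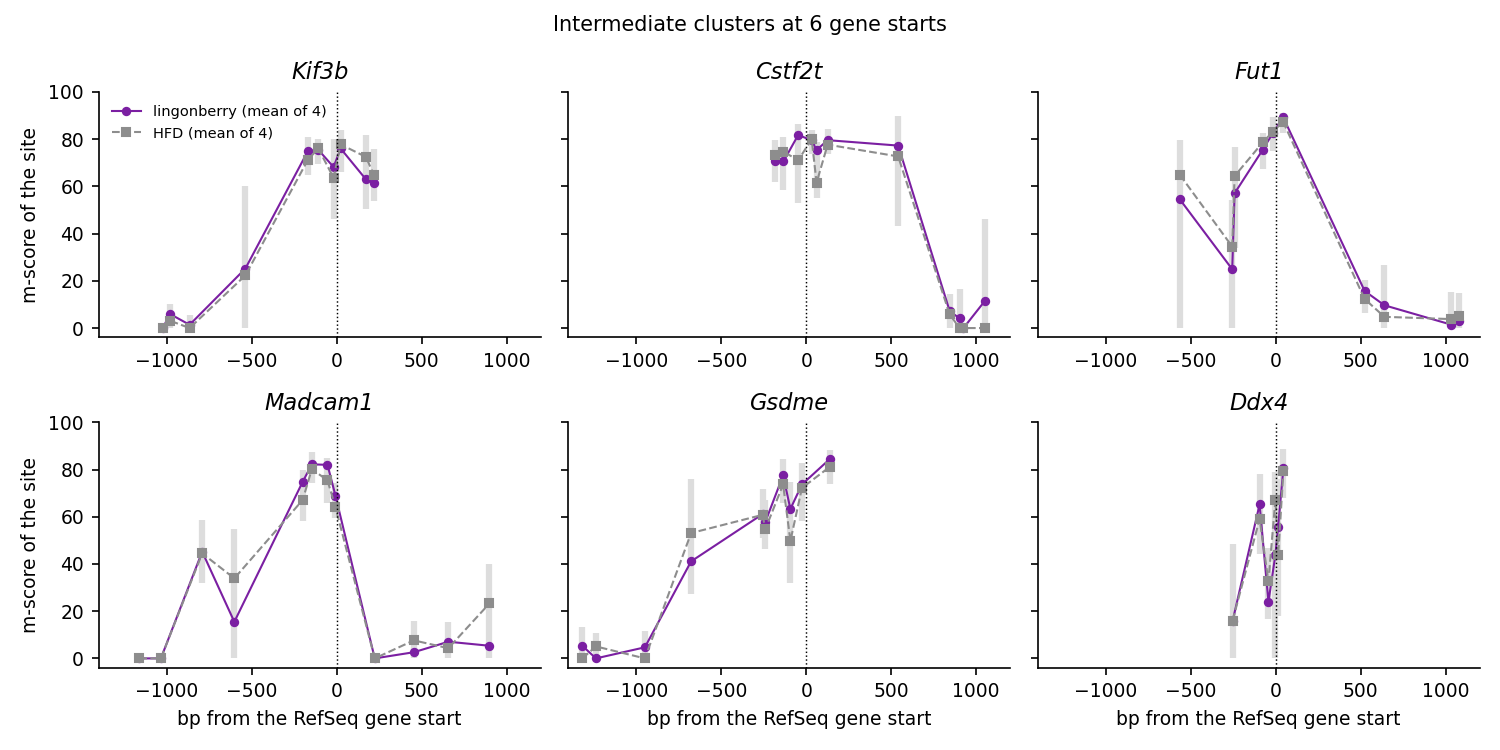
m-score of each site (y axis) against the distance of its CCGG from the RefSeq gene start in bp (x axis) in 6 intermediate clusters, as the mean of 4 lingonberry samples (purple circles) and of 4 HFD samples (grey squares), with grey bars from the lowest to the highest of the 8 samples. Kif3b, Cstf2t, Fut1, Madcam1 and Gsdme show sites at 56.3 to 82.9 within 250 bases before the start and sites near 0 farther away, while the 6 sites of Ddx4 alternate between 15.9 and 79.9.

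Ddx4 differed from these in layout. Its cluster (chr13:113442473-113442771, mm9) had 6 sites within 300 bases, with m-scores of 15.9, 62.1, 28.3, 55.6, 49.7 and 79.9 in the order of transcription. The cluster mean was 56.5, 50.5, 38.2 and 44.9 in the lingonberry samples, against 53.4, 45.9, 57.9 and 41.3 in the HFD samples. The groups overlapped, and they averaged 47.5 ± 7.83 with lingonberries and 49.6 ± 7.43 with HFD (SD, n = 4 each). Depth was low here: 4 of the 6 sites had 13 to 16 MspI tags.

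Across all the intermediate clusters, uneven sites were the rule rather than a uniform partial level. Averaged over the 8 samples, 5060 of the 13710 sites (36.9%) had an m-score below 25, 7661 (55.9%) lay from 25 to below 75, and 989 (7.21%) reached 75. At least 1 site below 25 was present in 2070 clusters (93.9%), and at least 1 site at 75 or above in 702 (31.9%). Both kinds together occurred in 686 clusters (31.1%), beside 1.74% of clusters with a mean below 25, 24.7% of those at 50 to below 75 and 0.576% of those at 75 or above. Clusters with every site from 25 to below 75 numbered 118 (5.35%), so the word intermediate fits the mean of a cluster and rarely all of its sites. The median SD over the sites of a cluster was 23.4, against 8.74 in the clusters below 25, 14.9 in those at 50 to below 75 and 9.13 in those at 75 or above. A mean near the middle of the scale leaves room for a wider spread than a mean near an end, so these spreads are a description and no test was made. Counting error in the MspI reference also adds to the spread over sites, and its part was not estimated. With an MspI minimum of 20 tags and clusters chosen again, 26.5% held both kinds of site.

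The order of sites along a cluster was described by splitting them at an m-score of 50. A single change from sites below 50 to sites at or above 50, in either direction, was present in 771 clusters (35.0%). A high centre with lower sites at both ends was present in 736 (33.4%), and the opposite, a low centre, in 34 (1.54%). In 440 clusters the side changed 3 or more times, and in 223 (10.1%) every site was below 50. The rule kept means below 50 and the split was also at 50, so a low centre between higher ends had little room. In the clusters at 50 to below 75, 28.1% had a single change, 3.08% a high centre and 22.1% a low centre. The mean of the 2 end sites was below that of the inner sites in 1339 intermediate clusters (60.8%), with a median difference of -5.24. That share was 71.3% in the clusters at 50 to below 75 and 45.8% in those below 25.

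The layouts recurred between the diet groups, which are separate samples. The deviation of each site from its cluster mean had a Pearson correlation of 0.939 between the mean of the 4 lingonberry samples and the mean of the 4 HFD samples, over 13710 sites. Between single samples it lay between 0.742 and 0.827 in the 28 pairs, with a median of 0.790. The sites share 1 MspI reference in all samples, so counting error in that reference enters both sides of these correlations. Clusters with a site below 25 and a site at 75 or above numbered 715 by the lingonberry mean and 737 by the HFD mean, and 582 of these were the same clusters, which is 81.4% of the lingonberry list and 79.0% of the HFD list. In 1226 clusters (55.6%) every site lay on the same side of 50 in both groups.

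The 5 clusters with the largest SD over sites, among those with 8 or more sites and no shared tag, each divided into a stretch of high and a stretch of low scores. In chr17:50432068-50433563 the first 7 of 15 sites had m-scores of 58.5 to 88.5, the next had 22.9, and the last 7 had 0 to 3.40. The sites with 58.5 and 22.9 were 22 bases apart. Of the 15 sites, 6 gave no HpaII tag in any sample, and 3 tags would have placed them between 1.35 and 5.46. The cluster mean was 35.3, 35.3, 37.4 and 43.3 in the lingonberry samples, against 34.7, 35.6, 34.2 and 39.0 in the HFD samples, so the groups overlapped.

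The other 4 clusters of this kind had a similar layout. In chr8:107802916-107803629 the first 5 sites had 65.3 to 91.3 and the last 4 had 2.35 to 10.1, so the cluster mean of 46.1 was far from the score of each of its 9 sites. In chr8:107898506-107899505 the first 3 sites had 67.5 to 87.6 and the last 5 had 0 to 14.5. In chr14:55722992-55725231 the direction was reversed, with 6 sites at 0 to 9.85 followed by 6 sites at 55.9 to 88.4. In chr1:138466914-138468330 the first 3 sites had 65.5 to 86.9, the next 30.9 and the last 5 had 0 to 6.14. No gene name is given to these 5 clusters, as no gene start was matched to them.

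The 5 most even clusters, chosen in the same way by the smallest SD over sites, had partial scores at nearly all of their sites. In chr13:36817789-36819064 the 8 sites had 32.1 to 51.3, with an SD of 6.52. The next ones were chr8:125286564-125287726 with 9 sites from 16.8 to 46.2 and chr13:54679371-54680457 with 8 sites from 9.63 to 42.0. A pair of larger ones, chr5:24096835-24098375 with 15 sites and chr4:139775303-139777040 with 11 sites, ranged from 24.3 to 68.9 and from 28.9 to 71.2. The cluster on chromosome 13 with the smallest SD had a mean of 41.5, 46.6, 41.6 and 39.5 in the lingonberry samples, against 38.3, 36.0, 33.8 and 51.8 in the HFD samples.

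**Figure D3:**
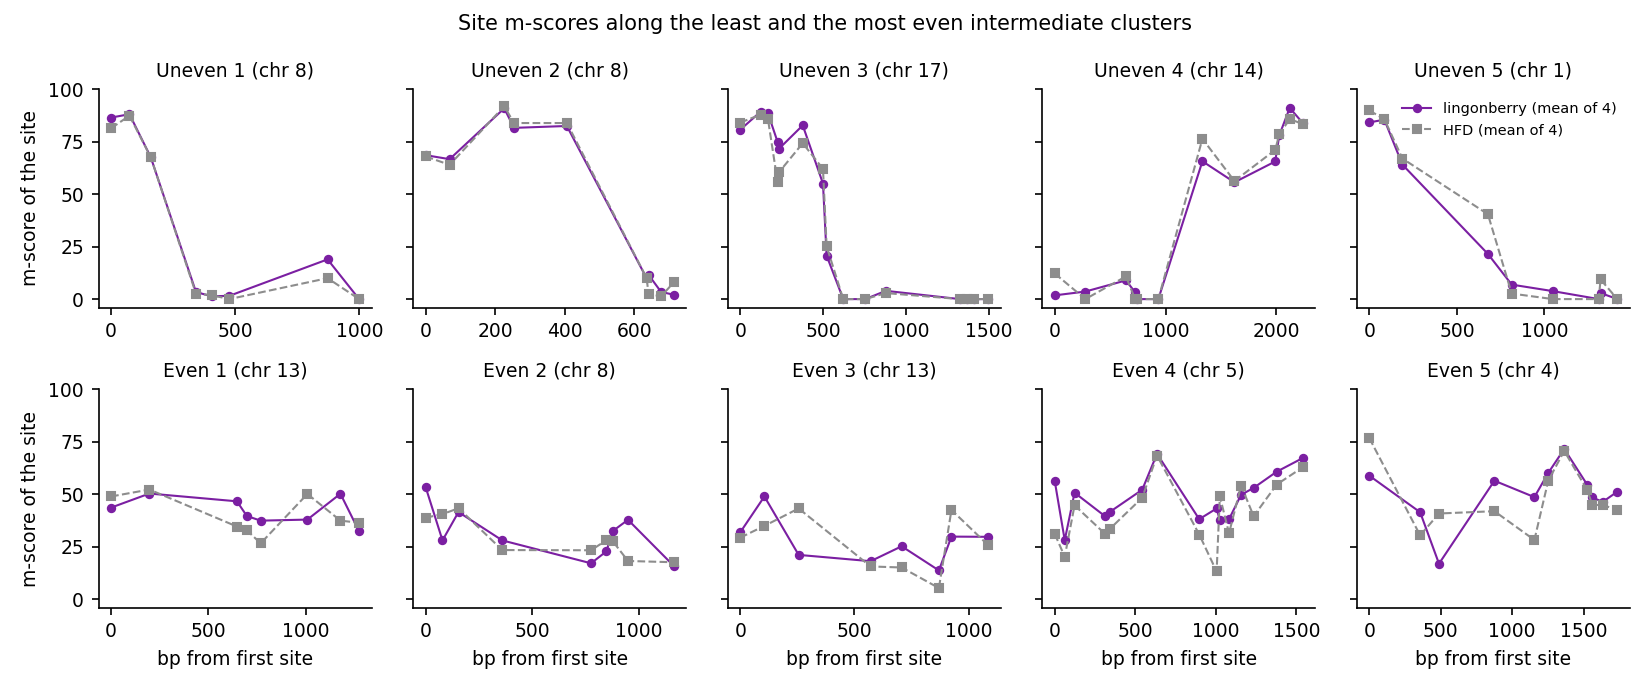
Site m-score (y axis, 0 to 100) against distance from the first site of the cluster in bp (x axis) for the 5 least even (top row) and 5 most even (bottom row) intermediate clusters of 8 or more sites, as the mean of 4 lingonberry samples (purple circles) and of 4 HFD samples (grey squares). In the top row scores change once between sites at 55.9 or more and sites at 30.9 or less (mean of 8 samples), at the same place in both groups; in the bottom row they stay between 9.63 and 71.2 by the mean of all 8 samples.

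Neighbouring sites were more alike the closer they lay. The median absolute difference in m-score between adjacent sites of the intermediate clusters was 12.3 at 1 to 50 bp (1653 pairs), 13.7 at 51 to 150 bp, 17.4 at 151 to 300 bp and 23.8 at 301 to 500 bp (2693 pairs). It was larger than in the other classes at each distance, for example 23.8 against 8.36 in the clusters below 25 and 17.0 in those at 50 to below 75 at the longest gaps. A difference of 25 or more was seen in 23.3% of the closest pairs and in 47.4% of the widest. Pairs of 1 cluster are not independent, and the rule used these scores, so no test was made.

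Most of these clusters were small. The shortest kind, with exactly 5 sites, made up 1110 clusters (50.4%), and 145 clusters had 10 to 19 sites. The median cluster spanned 953 bp, with quartiles of 716 and 1227 bp, and the median spacing was 195 bp per gap, beside 185 bp in the clusters below 25, 125 bp in the clusters at 50 to below 75 and 104 bp in those at 75 or above. Clusters with a site below 25 and a site at 75 or above made up 23.8% of those with 5 sites, 32.3% of those with 6 or 7, 43.7% of those with 8 or 9 and 64.1% of those with 10 to 19, and more sites give more chances for both kinds to occur. The median cluster had 30.8 MspI tags per site, beside 30.5 in the clusters below 25, 37.0 in those at 50 to below 75 and 36.2 in those at 75 or above. HpaII tags per site and sample were 7.50 here and 1.37, 27.8 and 35.5 in those classes.

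In the 608 clusters of 7 or more sites, the score was lowest at the end sites and higher inward in every sample. The outermost sites averaged 32.3 (30.3 to 33.6 over the 8 samples), the second 36.5, the third 37.9 and the inner sites 39.7 (38.2 to 41.9). The clusters at 50 to below 75 had 61.5 at the ends and 72.4 inside. The end sites of the intermediate clusters were below the inner sites in 8 of 8 samples.

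Sites outside the clusters were not used by the rule, and they were tested. These flanking sites lay more than 500 and up to 5000 bp from an end and belonged to no cluster. Flanks of the intermediate clusters had a mean m-score of 23.9, 22.8, 24.5 and 25.3 in the lingonberry samples, against 24.7, 25.5, 26.5 and 24.9 in the HFD samples. The groups overlapped, with 24.1 ± 1.04 with lingonberries and 25.4 ± 0.822 with HFD (SD, n = 4 each). Over all 8 samples the flanks were 4.12 above those of the clusters with a mean below 25 (24.8 against 20.6). They were lower by 4.15 than the flanks of the clusters at 50 to below 75 (24.8 against 28.9) and lower by 5.46 than those of the clusters at 75 or above (24.8 against 30.2). Each difference had the same sign in 8 of 8 samples, with an exact two-sided sign-flip permutation p of 0.00781, the smallest that 8 samples allow. The samples share the same flanking sites and 1 MspI reference, so this p measures how far a difference recurs between samples. It does not measure the spread between clusters. Over the nearest sites, up to 2000 bp, the differences were 4.44, -8.84 and -11.8. A cluster at 50 to below 75 lay within 5 kb of 12.8% of the intermediate clusters. That share was 8.66% for the clusters below 25, 12.5% for those at 50 to below 75 and 11.3% for those at 75 or above. Its part in the flank differences was not tested.

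**Figure D4:**
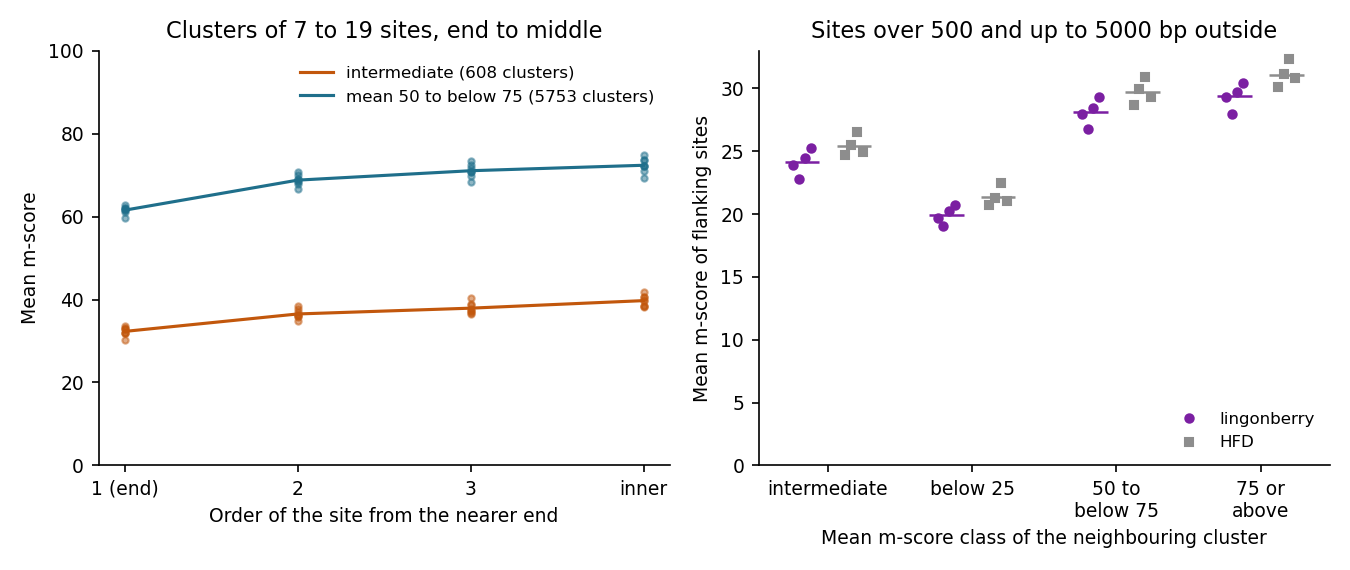
Left, mean m-score (y axis) by order of the site from the nearer end (x axis) in clusters of 7 to 19 sites; lines are the mean of 8 samples and points single samples. Right, mean m-score of flanking sites (y axis) by class of the neighbouring cluster (x axis), with points for lingonberry (purple) and HFD (grey) samples and bars for the mean of 4. Scores at the ends lie below those of the inner sites, 32.3 against 39.7 in the intermediate clusters, and the intermediate clusters' flanks lie between those of the classes below 25 and 50 to below 75 in all 8 samples.

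Few of the clusters could be matched to a RefSeq gene start. Gene names came from the spacing of CCGG sites in RefSeq promoters, which was found at a single place among the files' sites for 3818 promoters of 3487 genes. Among clusters dense enough to hold such a match, with at least 4 sites in 300 bases, 12 of 531 intermediate clusters matched a promoter (2.26%). The share was 0.765% in the clusters below 25 (10 of 1307), 23.9% in those at 50 to below 75 (1455 of 6087) and 26.0% in those at 75 or above (989 of 3806). The match needs listed sites close together and a single place, so a gene start with fewer CCGG sites or several possible places goes unnamed. These are shares of matched clusters, and the share that lies at gene starts is not known from them.

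In all, 14 intermediate clusters were matched, counting 2 with fewer than 4 sites in 300 bases. Besides the 6 shown above they were the clusters at Lxn, an inhibitor of carboxypeptidases, Adra1b, the alpha-1B adrenergic receptor, which takes part in the response of liver to catecholamines, Vmn2r29, a vomeronasal receptor gene, and at Tmem54, Fam241b, 4933428G20Rik, Gm40847 and 1600014C23Rik. In 12 of the 13 with a site more than 500 bases from the start, the mean m-score of sites within 250 bases exceeded that of the sites beyond 500 bases. The exception was Vmn2r29, with 42.8 near the start and 60.5 beyond, where 8 of the 14 sites had tags shared with other places, as had 6 of the 8 sites at Gm40847. At 1600014C23Rik the sites within 250 bases averaged 60.8 and those beyond 21.2, and at Adra1b 54.8 and 19.7. At Lxn the scores were 47.8 and 38.2, with no single step.

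The median promoter of the 14 clusters had 18.5 CpG in the 250 bases before the start, an observed over expected CpG ratio of 0.705 and 66.6% G and C. The promoters matched in the clusters below 25 had 15.0, 0.606 and 64.0%. Those matched in the clusters at 50 to below 75 had 24.0, 0.854 and 68.8%, and those at 75 or above had 24.0, 0.863 and 68.8%. All 32851 RefSeq promoters had 6.00, 0.373 and 52.4%. A match needed at least 4 CCGG sites, which favours promoters rich in CpG in every class. The contrast with all promoters therefore cannot be read as a property of the intermediate clusters.

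Of the gene lists, 1 had a member among the intermediate clusters. The germline list had 4 of its 14 genes matched: Ddx4, with a cluster mean of 48.6, and Dmrtb1, Hormad1 and Mael, genes of germ cell development, meiosis and transposon silencing, with 11.2, 10.4 and 9.19, in the class below 25. The imprinted list had 5 of 42 genes matched and none among the intermediate clusters. Mcts2 and Zrsr1, imprinted retrogenes active on the paternal copy, and Grb10, an adaptor that restrains insulin signalling, lay in the class at 50 to below 75, at 58.1, 61.9 and 72.6, and Copg2 and Gnas in that at 75 or above, at 78.9 and 79.7. Mcts2 had 57.2, 57.3, 55.0 and 59.9 in the lingonberry samples, against 56.9, 63.2, 56.1 and 59.5 in the HFD samples. The lists of lipid genes (3 of 16 matched: Acly, which makes acetyl-CoA for fat synthesis, Insig2, which holds back sterol synthesis, and Pparg, a receptor that drives fat storage), developmental regulators (3 of 32) and liver genes (0 of 14) had no member among them. With no liver gene matched and no expression measured, the labelled tissue was not checked by marker genes.

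The clusters were spread over all 19 autosomes. They made up between 7.40% of the clusters of 5 to 19 sites on chromosome 3 (57 of 770) and 13.5% on chromosome 4 (218 of 1613). They occurred in 888 windows of 1 Mb, in 381 of which there was 1. The most in a window was 15, in chr10:80000001-81000000, where 85 clusters of 5 to 19 sites lay, and in chr8:123000001-124000000, where 53 lay.

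For the diet comparison, the mean m-score of the 2204 clusters was 36.7, 34.9, 35.8 and 38.0 in the lingonberry samples, against 35.7, 36.5, 37.2 and 37.3 in the HFD samples. The groups overlapped, and they averaged 36.35 ± 1.32 with lingonberries and 36.66 ± 0.719 with HFD (SD, n = 4 each). The difference of -0.309 was smaller than either SD, and it was 0.163 without lingonberry replicate 2 and -0.862 without lingonberry replicate 4. No p is given for a mean over clusters chosen by their scores. The sites below 25, from 25 to below 75 and at 75 or above differed by -0.248, -0.217 and 0.062.

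No single cluster differed between the diets after adjustment. Across all 20674 clusters 0 had an adjusted p below 0.05 by limma on the m-score, a background of 0%, and the smallest adjusted p, also among the intermediate clusters, was 0.604. The same count was 0 on log2 tags. At an unadjusted p below 0.05 there were 86 intermediate clusters (3.90%), read against 8.18% of all clusters. Higher with lingonberries were 28 (1.27%), against a background of 6.32%, and lower were 58 (2.63%), against a background of 1.86%. Without lingonberry replicate 2, 44 were higher (2.00%, background 5.39%) and 40 lower (1.81%, background 1.58%). Without HFD replicate 3, 29 were higher (1.32%, background 4.04%) and 33 of the 2204 lower, a share under the background of 1.69%. Without HFD replicate 4, 46 were higher (2.09%, background 7.66%) and 56 lower (2.54%, background 2.04%). On log2 tags per 1000000 HpaII tags, 41 were higher (1.86%, background 11.6%) and 61 lower (2.77%, background 1.57%). Groups that did not overlap were seen in 24 clusters higher with lingonberries (1.09%, background 3.88%) and 40 lower (1.81%, background 0.963%). The median difference over the intermediate clusters was -0.163, and 48.0% lay above 0. Over all clusters it was 1.01, and 65.9% lay above 0.

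The background itself moved with the scaling. With factors for local site density, estimated per sample on unmethylated sites, the median over all clusters was -0.162 and that over the intermediate clusters was -0.736. All clusters with an unadjusted p below 0.05 by limma then divided into 1.75% higher and 2.79% lower with lingonberries, and the intermediate clusters into 0.953% higher (21) and 2.77% lower (61). The share of intermediate clusters lower with lingonberries was thus near the background under these factors. After thinning to the smallest library this share was 3.40%, against a background of 2.24%. Without HFD replicate 1 it was 3.68%, against a background of 2.22%. How far the share stood above the background, or whether it did, therefore depended on the scaling and on the libraries included.

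Values of the clusters with the smallest p are given as examples of the size that the spread allows. The cluster chr7:107284206-107285755 (6 sites) had m-scores of 38.0, 33.5, 38.2 and 31.8 in the lingonberry samples, against 22.0, 23.3, 17.0 and 22.6 in the HFD samples. The groups did not overlap, the difference was 14.2 with an SE of 3.05, and the adjusted p was 0.604 by limma. Its 6 sites were covered by 153 HpaII tags over the lingonberry samples and 60 over the HFD samples, not scaled for the depth of the libraries. The cluster chr7:148546917-148548406 (6 sites) had 30.1, 24.8, 24.2 and 27.6 in the lingonberry samples, against 41.4, 39.8, 40.3 and 41.0 in the HFD samples. These groups did not overlap either, with a difference of -14.0, an SE of 3.05 and an adjusted p of 0.604 by limma. It had a high centre, with 3 sites at 49.6 to 64.5 between sites at 5.36 to 17.1, and each of its 6 sites was lower with lingonberries. Unscaled HpaII tags were nearly equal here, 138 over the lingonberry samples and 146 over the HFD samples, so the difference rests on the scaling for depth.

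The other 4 clusters with the smallest p in each direction had differences of up to 16.5 among those higher and between -13.8 and -11.3 among those lower. Those higher with lingonberries were chr1:5906217-5906933, chr1:169513989-169514274, chr15:100475196-100476022 and chr16:18732984-18734075. Those lower were chr7:50684006-50684881, chr11:120502417-120503351, chr11:100437386-100438081 and chr10:92745581-92746137. The adjusted p of each was 0.604 by limma. They had 5 or 6 sites each, and none was matched to a gene start.

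**Figure D5:**
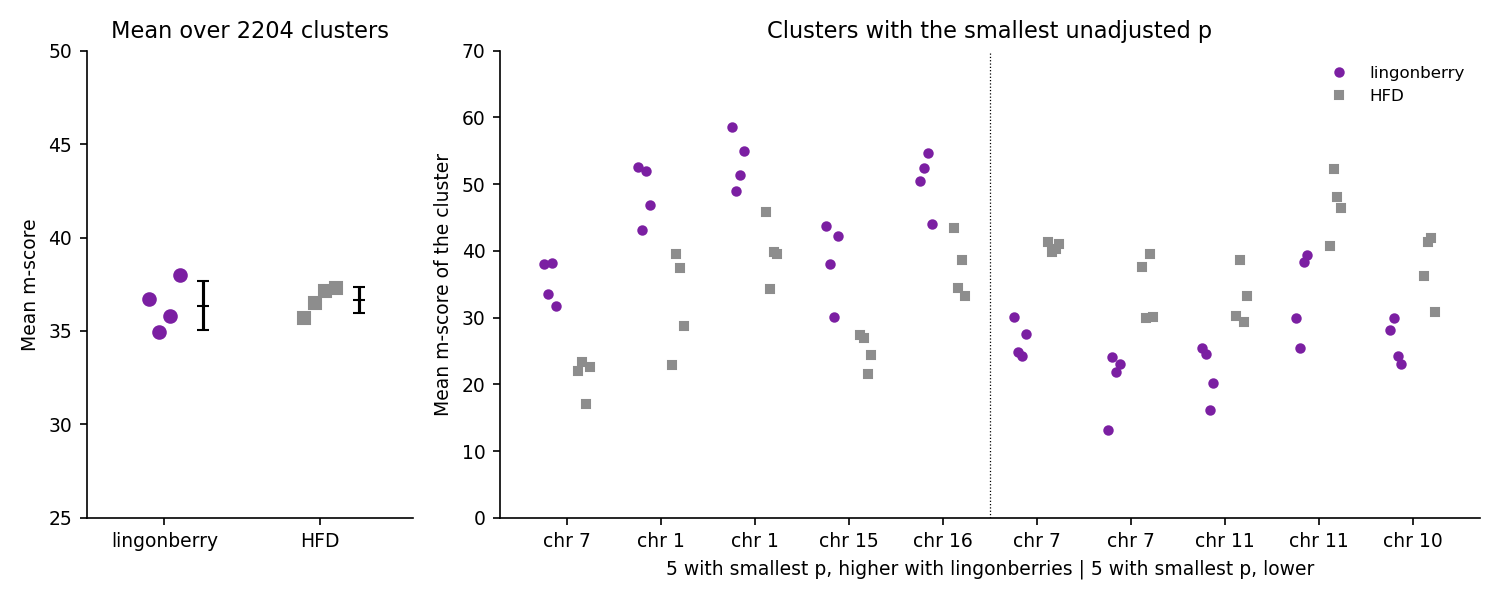
Left, mean m-score over the 2204 intermediate clusters (y axis) in each lingonberry (purple circles) and HFD (grey squares) sample, with the mean and SD of 4 beside them. Right, mean m-score (y axis) of the 5 clusters with the smallest unadjusted p that were higher with lingonberries (left of the dotted line) and the 5 that were lower (right), by chromosome (x axis); points are single samples. On the left the groups overlap between 34.9 and 38.0, and on the right the adjusted p of each cluster is 0.604.

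The median SD between samples was 4.66 in the lingonberry group and 4.88 in the HFD group, where counting of HpaII tags alone gives 4.05 and 4.83. The variance between samples was 1.79 times the counting variance in the lingonberry group and 1.39 times in the HFD group, whose libraries were mostly shallower. These ratios were 1.43 and 1.14 in the clusters below 25, 2.62 and 2.00 in those at 50 to below 75, and 3.37 and 2.80 in those at 75 or above. The cluster means had a correlation between samples of 0.533 to 0.710 over the 28 pairs, within a range that the rule had narrowed to 25 to 50. All 8 samples lay from 25 to below 50 in 768 clusters (34.8%), and 4 or fewer did in 227 (10.3%).

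The widest range over samples, among clusters of 8 or more sites without shared tags, was in chr8:125222122-125223222. Its mean was 30.6, 30.4, 35.3 and 39.4 in the lingonberry samples, against 16.0, 36.7, 41.8 and 30.2 in the HFD samples. The groups overlapped, and HFD replicate 1 was the lowest of the 8. The next widest were chr5:130095181-130097221, from 26.9 to 51.1, and chr19:56899679-56901043, from 25.3 to 49.0.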

How the data were processed

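HELP-tagging was applied to DNA of 8 liver samples. Per the file headers, each deposited file lists for every HpaII site an m-score, a score from 0 to 100, and a signal named conf; from the values, these are the angle and the length of the vector of HpaII and scaled MspI tags. Per the submitters' processing notes the build is mm9 and CASAVA was used, with no version; the aligner and the filters are unknown from these sources. The MspI component was 1 reference of about 29676321 tags scaled to each file.

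HpaII and MspI tags were recovered from each vector, and 96.1% to 97.0% of HpaII values above 0 were whole within 0.02. A site was read as having tags shared between sites if its MspI value, or its HpaII value in more than a single sample, was fractional. This was judged only at tag numbers where the decimals of the deposited values resolve it. It held for 577 sites of the intermediate clusters (4.21%). HpaII totals ran from 5877080 to 16076961, and the tags carry no molecular identifiers, so limits given for 0 tags (3 tags summed over 8 samples) cover counting error only. The MspI minimum of 10 was applied with a tolerance of 0.1% for rounding. Replicate numbers are accession order and pair nothing.

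Cluster means were compared with limma 3.58.1 (R 4.3.3; empirical Bayes with a mean trend), with Benjamini-Hochberg adjustment over all 20674 clusters and a threshold of 0.05. The procedure was also run on simulated data with an assumed spread between samples, and no result here rests on that run. Flanks were compared by exact sign-flip permutation over samples. Alternatives changed the MspI minimum, the scale (angle of summed tags; log2 tags per 1000000 with a pseudocount of 0.5), sites with shared tags, depth, density factors, the limma settings, the gap, and left out each replicate.

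Members, gene lists and alternatives were chosen with earlier results of these data known. Named clusters are the 5 with the smallest p in each direction, the 5 most and 5 least even and the 3 with the widest range among those with 8 or more sites and no shared tag, and the 3 nearest each limit. No genome or annotation of the mm9 build was used. Gene starts were instead found, after the data were seen, by matching the spacing of at least 4 CCGG sites in RefSeq promoter sequences (GRCm38.p6, 250 bases before to 50 after the start) to the files' sites; 3819 promoters had 1 place, and 1 on another chromosome was dropped. Cluster coordinates are mm9 and promoter coordinates GRCm38.p6, and none was converted. Python 3.11.15, numpy 2.4.6, pandas 2.3.3, scipy 1.17.1 and matplotlib 3.10.9 were used.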

Additional observations from a re-analysis of the deposited data

Results flagged for a closer look

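Of 102 groups of 4 samples examined (the mean over the clusters, their flanks, the named clusters and the matched promoters), 4 held a sample far from the other 3 of its group. Chance gives about 5.10 for groups not picked by their values. Some of the named clusters were picked for their p or their range over samples, so that figure need not hold here. All 4 were lingonberry groups. In the even cluster chr13:54679371-54680457, lingonberry replicate 4 had an m-score of 37.6, against 24.4, 23.7 and 24.0 in the others of its group. In the even cluster chr5:24096835-24098375, lingonberry replicate 1 had 43.8, against 50.0, 50.4 and 49.5. In chr19:56899679-56901043, lingonberry replicate 3 had 25.3, against 36.5, 37.5 and 37.5. In chr17:12319803-12321088, which lies just below the lower limit and is no intermediate cluster, lingonberry replicate 3 had 33.3, against 21.1, 20.1 and 21.5.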

How the results depend on the processing

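The count of clusters past the adjusted threshold was 0 under all 16 alternatives, and the smallest adjusted p by limma ranged from 0.201, without the mean trend, to 0.971, with density factors. The counts of intermediate clusters at an unadjusted p below 0.05 (28 higher, 58 lower) were 80 and 114 by limma without the mean trend (3.63% and 5.17%, background 5.48% and 2.18%), and 46 and 74 with robust moderation (2.09% and 3.36%, background 6.03% and 1.83%). Leaving out 1 replicate gave 27 (1.23%, background 4.77%) to 46 higher (2.09%, background 7.66%). It gave 33 (1.5%, background 1.69%) to 81 lower (3.68%, background 2.22%). The counts higher and lower were 44 and 40 without lingonberry replicate 2, 46 and 56 without HFD replicate 4, and 29 and 33 without HFD replicate 3. The mean difference over the clusters ranged from -0.862 to 0.163 when 1 replicate was left out, was -0.735 after thinning to the smallest library and -0.798 with density factors, and on log2 tags per 1000000, another unit, was -0.0268. The 10 named diet clusters, picked for the smallest p in these data, kept their direction in all 160 values under 16 alternatives. None passed the adjusted threshold. Their groups did not overlap, so leaving out 1 sample or changing the limma settings could not reverse a direction. The count of 160 is therefore no measure of how reliable the directions are.

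The flank differences kept their sign and an exact p of 0.00781 in each of the other windows and site sets; with 7 samples the p was 0.0156, the smallest that 7 allow, and the differences were 4.05 to 4.17, -4.18 to -4.11 and -5.51 to -5.40. Gaps of 250 bp, which left 586 clusters, gave 20.5% with a site below 25 and a site at 75 or above, 31.9% with a single step and 58.0% with lower ends. Gaps of 1000 bp (6146 clusters) gave 41.7% and 29.8% for the first 2 of these. An MspI minimum of 20 (761 clusters) gave 26.5% with both kinds of site and 63.6% with lower ends. Leaving out 1 replicate, an alternative added after the data were seen, gave 30.6% to 32.0% with both kinds of site, 34.5% to 35.3% with a single step, 32.4% to 33.9% with a high centre and 60.3% to 61.4% with lower ends. With 5 matching sites in place of 4, also added later, 1.13% of dense intermediate clusters matched a promoter. The causes of these changes were not tested.

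No paired analysis was possible because the labels give no replicate numbers or pairing. At a median of 7.50 HpaII tags per site and sample, single sites in single samples are imprecise, and the median SD of 4.66 and 4.88 between samples limits what 4 against 4 samples can show for a cluster.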
